A study of Mus musculus with 4 samples.

Results

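The cytosolic heat shock chaperones studied here were 10 genes taken by name from 40213 gene symbols measured. They were Hsf1, Hsp90aa1, Hsp90ab1, Fkbp4, Hspa8, Hsph1, Hspa4, Dnaja1, Dnajb1 and Dnajb4, and all 10 were listed and passed the filter on low values. The cells were RAW264.7, a mouse macrophage line, and gene expression was measured by RNA sequencing. One group was labelled CuNZ@Gel and the other Gel, with 2 libraries each and 48 h of culture with the material. What the Gel cells received is known from the sample titles alone, since the treatment field gives CuNZ@Gel for every sample, and CuNZ is not spelled out. By its title, the series belongs to work on nanozyme hydrogels for wounds in diabetes. The cells are 1 tumour-derived line. Whether the replicates came from separate cultures is not stated, and p-values here cover only the spread among 4 libraries, which may be technical.

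Molecular chaperones bind unfolded or partly folded proteins and release them in cycles driven by ATP. In the cytosol, J proteins bring clients to HSP70, exchange factors such as the HSP110 proteins reset HSP70, and HSP90 with its co-chaperones completes the maturation of kinases, steroid receptors and other signalling proteins. HSF1 is the transcription factor that raises many of these genes after heat, heavy metals or oxidants, and in resting cells it is restrained by the chaperones themselves. In macrophages the same machinery handles inflammatory kinases and innate immune sensors.

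The libraries held 13707534 to 14868190 recovered reads, and within a group they correlated across tested genes at a Pearson r of 0.995, where genes are not independent replicates. The 10 genes took 0.830% and 0.851% of all reads in the CuNZ@Gel libraries, against 0.789% and 0.764% in the Gel libraries. Levels are given as scaled CPM, which is CPM divided by 1 factor per library and not by gene length. In that unit the 10 genes summed to 7786 and 7959 in CuNZ@Gel, against 8417 and 8161 in Gel. The direction of their sum thus depends on the scaling. Macrophage identity was checked with 10 markers, of which 9 passed the filter, and their summed level was 9164 and 8924 scaled CPM in CuNZ@Gel, against 5665 and 5833 in Gel. Lyz2, the lysozyme gene, carried most of that sum, at 6000 and 5776 in CuNZ@Gel, against 3004 and 3155 in Gel, and without it the sum was 3164 and 3148 in CuNZ@Gel, against 2661 and 2677 in Gel. Of the 9 markers 6 were raised and 2 lowered (Cd68 and Fcgr1), Spi1 did not pass, and Mertk was at most 0.883 scaled CPM. The fall of Cd68 (log2 change -0.23) did not pass with total reads only (-0.038). Markers of other cell types were near 0: the summed level of 6 fibroblast markers was 1.27 to 1.51 in CuNZ@Gel and 0.545 to 0.580 in Gel. For 6 epithelial markers it was 0.504 to 0.571 in CuNZ@Gel and 1.09 to 1.87 in Gel. For 4 endothelial markers it was 2.41 to 2.84 in CuNZ@Gel and 0.0725 to 0.155 in Gel. For 5 T and B cell markers it was 0.571 to 1.20 in CuNZ@Gel and 0 to 0.145 in Gel, with Cd3e, Cd3g and Ms4a1 among those listed at 0 throughout. Pdgfrb of the fibroblast list and Pecam1 of the endothelial list passed the filter and were raised (log2 changes of 0.78 and 1.37). Their levels were at most 1.39 and 2.21 scaled CPM. The part of these markers in the changes below was not tested, and in bulk RNA fewer cells of a kind and less RNA per cell cannot be told apart. Gm26917, a transcript that resembles ribosomal RNA, took 7.14% ± 0.0561 of reads in CuNZ@Gel and 11.8% ± 0.0777 in Gel (SD, n = 2 each).

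The 10 chaperone genes did not move as a block. Hsp90aa1, Hsph1 and Dnajb4 rose in CuNZ@Gel, each to about the same degree (log2 changes of 0.94, 1.06 and 1.05). Hsf1, Fkbp4, Hsp90ab1 and Hspa8 fell (log2 changes of -0.64, -0.74, -0.44 and -0.26). Hspa4, Dnaja1 and Dnajb1 did not pass the test. Thus 7 of 10 genes were called by limma at an adjusted p under 0.05, where 67.1% of the 11588 genes tested were called, 32.2% as raised and 34.8% as lowered. The share of called genes was therefore near that of all genes, and their median log2 change of -0.03 was that of all tested genes (-0.03). Both libraries of one group lay apart from both of the other for 9 of the 10 genes, where this held for 83.2% of all tested genes. Scaling by total reads only shifted the median of all genes by 0.18 on the log2 scale. With that scaling 5 of the 10 genes were raised and 3 lowered, where 68.1% of all genes were called, 43.4% as raised and 24.7% as lowered. Correcting each library for the length and GC content of transcripts gave 3 raised and 6 lowered of the 10, where 65.7% of all genes were called, 30.1% as raised and 35.7% as lowered.

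**Figure D1:**
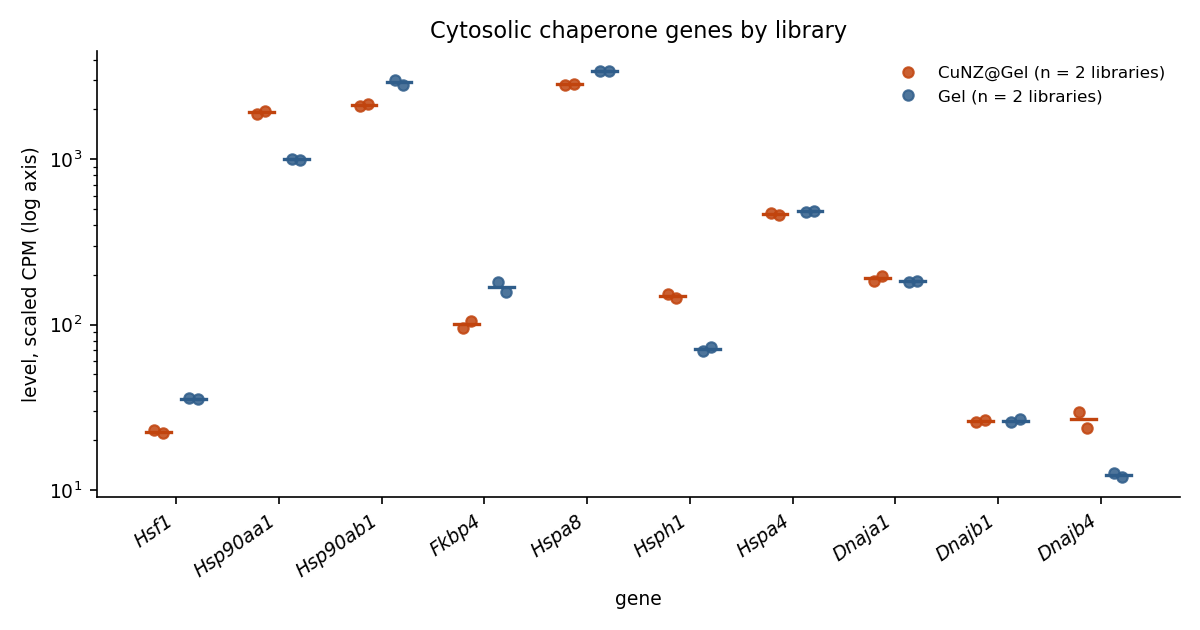
Levels of the 10 chaperone genes in scaled CPM (log axis), with 1 point per library, a line at the mean, and CuNZ@Gel left of Gel for each gene. Hsp90aa1, Hsph1 and Dnajb4 lie higher in both CuNZ@Gel libraries, Hsf1, Fkbp4, Hsp90ab1 and Hspa8 lie lower, and the points of Dnajb1 overlap.

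Hsf1, the transcription factor of the heat shock response, had 23.0 and 22.2 scaled CPM in the CuNZ@Gel libraries, against 36.1 and 35.5 in the Gel libraries. Both CuNZ@Gel libraries were lower than both Gel libraries, on 349 to 365 reads per CuNZ@Gel library and 456 to 498 per Gel library. Its level in CuNZ@Gel was 63.1% of that in Gel, with a log2 change of -0.64 (95% interval -0.84 to -0.44, limma adjusted p = 5.96e-06). Genes of the HSF family and of proteins that act on HSF1 were raised in 3 of 8 tested cases, and 2 were lowered. Of all tested genes 32.2% were raised and 34.8% lowered. The median log2 change of the list was 0.15. With total reads only, 4 of the list were raised and 2 lowered, beside 43.4% and 24.7% of all genes. Fbxw7, the ubiquitin ligase subunit that marks HSF1 for degradation, fell to 29.3 ± 0.534 scaled CPM in CuNZ@Gel, against 50.3 ± 0.704 in Gel (SD, n = 2 each). Ep300, an acetyltransferase whose substrates include HSF1, rose by 0.63 on the log2 scale. Hsf2, a related heat shock factor, reached 27.2 and 27.4 scaled CPM in CuNZ@Gel, against 18.3 and 20.6 in Gel, a log2 change of 0.47. Hsbp1, which binds HSF1 and restrains it, rose by 0.31. Hsf1 and Hsf2 thus moved in opposite directions in the same libraries.

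The pair of cytosolic HSP90 genes moved apart. Hsp90aa1, the stress-inducible form, had 1881 and 1947 scaled CPM in CuNZ@Gel, against 1005 and 990.2 in Gel. Hsp90ab1, the constitutive form, had 2100 and 2168 in CuNZ@Gel, against 3020 and 2791 in Gel. The groups did not overlap for either gene, and each library held at least 12709 reads of each. Hsp90aa1 rose 1.92-fold (log2 change 0.94, 95% interval 0.82 to 1.06, limma adjusted p = 1.28e-11), and Hsp90ab1 fell to 73.5% of its Gel level (log2 change -0.44, interval -0.58 to -0.31, adjusted p = 4.26e-06). Their summed level was 4048 ± 95.1 scaled CPM in CuNZ@Gel and 3903 ± 173 in Gel (SD, n = 2 each). The libraries of the groups overlapped: 3981 and 4116 in CuNZ@Gel, 4025 and 3781 in Gel. That overlap rests on the scaling. As a share of all reads the pair took 0.425% and 0.440% in CuNZ@Gel, against 0.377% and 0.354% in Gel, without overlap. Hsp90aa1 made up 47.2% and 47.3% of the reads of the pair in CuNZ@Gel, against 25.0% and 26.2% in Gel. Counted per kilobase of transcript, its share was 40.8% ± 0.0474 in CuNZ@Gel and 20.9% ± 0.753 in Gel.

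This ratio of the forms lies within a library and does not depend on how libraries are scaled. The ratio of Hsp90aa1 to Hsp90ab1 reads was 0.896 and 0.898 in CuNZ@Gel, against 0.333 and 0.355 in Gel, a 2.61-fold difference. The distance between the groups, 1.38 on the log2 scale, was larger than the spread within them (SD 0.0028 in CuNZ@Gel and 0.0658 in Gel). A two-sided exact permutation test gave p = 0.333, the smallest value that 2 libraries against 2 can give, and 3 such ratios were tested. The HSP90 proteins of other compartments also differed in direction. Hsp90b1, the form of the endoplasmic reticulum, rose to 930.2 ± 2.74 scaled CPM in CuNZ@Gel, against 688.5 ± 25.0 in Gel. Trap1, the mitochondrial form, fell to 107 ± 3.02 in CuNZ@Gel, against 159 ± 3.60 in Gel. Of the 4 HSP90 genes, 2 were raised and 2 lowered under each of the scalings tried. By the deposited scaling 32.2% of all tested genes were raised and 34.8% lowered.

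**Figure D2:**
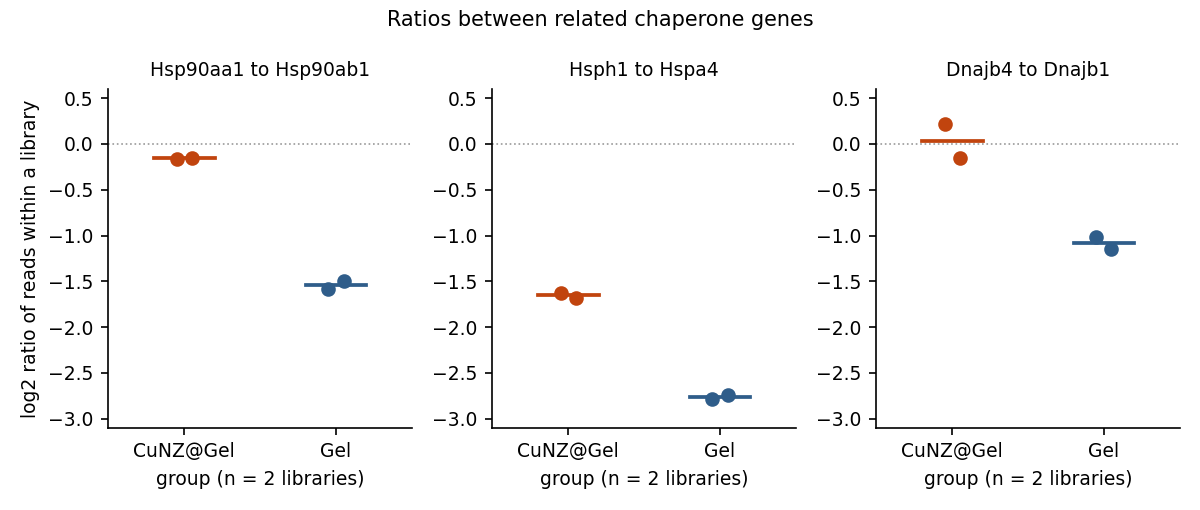
Log2 ratio of reads between related chaperone genes within each library, with 1 point per library, a line at the mean and CuNZ@Gel left of Gel. In each panel both CuNZ@Gel libraries lie above both Gel libraries, and the means differ by 1.38 for Hsp90aa1 to Hsp90ab1, 1.11 for Hsph1 to Hspa4 and 1.12 for Dnajb4 to Dnajb1.

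Fkbp4 encodes FKBP52, a prolyl isomerase that binds HSP90 and assists steroid receptors. It had 95.5 and 106 scaled CPM in CuNZ@Gel, against 181 and 158 in Gel. The groups did not overlap, although the Gel libraries differed from each other by more than the CuNZ@Gel libraries did. Its level in CuNZ@Gel was 59.4% of that in Gel (log2 change -0.74, 95% interval -0.90 to -0.59, limma adjusted p = 2.10e-08), the largest fall among the 10 genes by the deposited values. Of 26 HSP90 co-chaperone genes, Fkbp4 included, 12 were lowered, 4 were raised and 10 did not pass, beside 34.8% lowered and 32.2% raised of all tested genes. This split turned with total reads only, where 7 were lowered and 10 raised, beside 24.7% and 43.4% of all genes. The median log2 change of the 26 was -0.12 as deposited and 0.07 with that scaling. With any 1 library left out, fewer of the 26 were raised and no more were lowered. The share of all genes called in those fits is not given here. Fkbp5, the close relative FKBP51, did not pass, at 17.8 and 20.4 scaled CPM in CuNZ@Gel and 16.1 and 19.4 in Gel. Aarsd1, an alanyl-tRNA editing protein that is also counted among HSP90 co-chaperones, fell to 18.9 ± 1.97 scaled CPM in CuNZ@Gel, against 71.2 ± 4.57 in Gel, a log2 change of -1.86. Sugt1, which links HSP90 to innate immune sensors and to kinetochore assembly, fell by 0.70. Pih1d1, of the R2TP complex that assembles large protein complexes with HSP90, fell by 0.82. Fnip2, a folliculin partner that slows the HSP90 ATPase, fell by 0.40. Stip1, which joins HSP70 to HSP90, did not pass (log2 change -0.07, and 0.11 with total reads only). Fkbp5 passed with total reads only (0.29, limma adjusted p = 0.0446). Fkbp5 and Stip1 were chosen after their values were seen.

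Hspa8 encodes HSC70, the constitutive cytosolic HSP70. It had 2818 and 2861 scaled CPM in CuNZ@Gel, against 3408 and 3403 in Gel, and both CuNZ@Gel libraries were lower. The log2 change was -0.26 (95% interval -0.40 to -0.13, limma adjusted p = 0.00116). With total reads only it was -0.07 and did not pass (adjusted p = 0.333), so the call rests on the scaling. Hspa8 contains snoRNA genes, of which Snord14c, Snord14d and Snord14e overlap its annotated exons and were at most 0.632 scaled CPM. How reads shared with its pseudogenes were counted is not given in the sources used here. In the HSP70 family 2 of 8 tested genes were raised and 3 lowered, beside 32.2% and 34.8% of all tested genes. With total reads only 3 of the family were raised and 2 lowered, beside 43.4% and 24.7% of all genes. Hspa9, the mitochondrial HSP70, fell to 793 ± 9.34 scaled CPM in CuNZ@Gel, against 1417 ± 41.7 in Gel. Hspa14, a ribosome-associated HSP70, fell by 0.58. Hspa5, the HSP70 of the endoplasmic reticulum, named after its values were seen, did not pass at 628 and 634 scaled CPM in CuNZ@Gel and 584 and 595 in Gel, but passed with total reads only (log2 change 0.29).

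The heat-inducible HSP70 genes were low. Hspa1b had 5.99 and 7.74 scaled CPM in CuNZ@Gel, against 2.82 and 2.65 in Gel, on 217 and 73 reads in all, and it rose by 1.07 on the log2 scale (limma adjusted p = 1.44e-05). Its near-identical neighbour Hspa1a was listed at 0 in all 4 libraries, so the division of reads between these copies is uncertain. Hspa12b was also listed at 0 throughout, and Hspa1l had 1 read in CuNZ@Gel and 2 in Gel. Hspa12a, a divergent HSP70 relative, had 3.66 and 2.03 scaled CPM in CuNZ@Gel, against 0.290 and 0.156 in Gel, from few reads: 90 in CuNZ@Gel and 6 in Gel. It rose 12.8-fold by means, which the pseudocount of 1 reduces to a log2 change of 1.62; with a pseudocount of 0.1 it was 3.16.

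Hsph1 and Hspa4 encode HSP110-type exchange factors, which also hold unfolded proteins in solution. Hsph1, the inducible one, had 154 and 144 scaled CPM in CuNZ@Gel, against 69.2 and 73.1 in Gel. Both CuNZ@Gel libraries were higher, and the 2.10-fold rise (log2 change 1.06, 95% interval 0.91 to 1.20, limma adjusted p = 2.79e-11) was the largest log2 change among the 10 genes by the deposited values. The lead was narrow: Dnajb4, at 1.05, had the larger fold of means (2.17) and led once length and GC were corrected for (1.01, against 0.92 for Hsph1). By the size of the log2 change Hsph1 ranked 1333 of 11588 tested genes. Hspa4 had 475 and 463 scaled CPM in CuNZ@Gel, against 478 and 488 in Gel, and did not pass (log2 change -0.04, interval -0.16 to 0.08, adjusted p = 0.523). Its call depended on the processing: it was raised by 0.15 with total reads only (adjusted p = 0.0319) and lowered by 0.27 once length and GC were corrected for (adjusted p = 2.81e-05). The ratio of Hsph1 to Hspa4 reads was 0.325 and 0.311 in CuNZ@Gel, against 0.145 and 0.150 in Gel, a 2.16-fold difference (two-sided exact permutation p = 0.333, the smallest possible). Among all 10 exchange factor genes, 5 were raised and 2 lowered, beside 32.2% and 34.8% of all tested genes. With total reads only 7 were raised and 1 lowered, beside 43.4% and 24.7% of all genes. Bag2 and Bag3, which couple HSP70 to ubiquitin ligase control and to autophagy, rose by 0.43 and 0.32. Bag1, which couples it to the proteasome, rose by 0.25, and without Gel replicate 2 or CuNZ@Gel replicate 2 it did not pass (0.16 and 0.20). Hspbp1, another exchange factor, fell by 0.48, but it did not pass without CuNZ@Gel replicate 1 (-0.24) or with length and GC corrected for (-0.14). Fewer of these genes were called without Gel replicate 2 or without CuNZ@Gel replicate 1. The share of all genes called in those fits is not given here.

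The promoters of Hsph1 and of 3 other genes are shown because HSF1 is known to bind repeats of the unit GAA and its complement TTC. Windows from 250 bases before to 50 bases after annotated starts were available for 6 of the 10 genes, from RefSeq on build GRCm38.p6, which is not the build of the expression files (GRCm39). Capitals mark pairs of units written GAANNTTC or TTCNNGAA, searched on both strands, and the triple unit, in which a pair is followed after 2 bases by another unit, so that it contains overlapping pairs.
Hsph1, chr5:149636266-149636565, minus strand: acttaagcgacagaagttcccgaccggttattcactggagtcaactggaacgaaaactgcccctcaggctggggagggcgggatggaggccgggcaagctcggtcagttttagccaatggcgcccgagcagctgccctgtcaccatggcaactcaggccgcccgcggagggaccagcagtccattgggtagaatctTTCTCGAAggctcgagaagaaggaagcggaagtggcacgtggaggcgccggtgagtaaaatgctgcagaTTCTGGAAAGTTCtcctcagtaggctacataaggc
Dnajb4, chr3:152193796-152194095, minus strand: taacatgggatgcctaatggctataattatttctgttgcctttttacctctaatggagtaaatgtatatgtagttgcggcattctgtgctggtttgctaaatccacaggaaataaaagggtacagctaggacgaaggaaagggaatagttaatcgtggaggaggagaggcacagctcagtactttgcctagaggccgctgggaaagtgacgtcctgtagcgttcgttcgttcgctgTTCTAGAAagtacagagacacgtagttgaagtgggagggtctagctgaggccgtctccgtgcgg
Fkbp4, chr6:128438607-128438906, minus strand: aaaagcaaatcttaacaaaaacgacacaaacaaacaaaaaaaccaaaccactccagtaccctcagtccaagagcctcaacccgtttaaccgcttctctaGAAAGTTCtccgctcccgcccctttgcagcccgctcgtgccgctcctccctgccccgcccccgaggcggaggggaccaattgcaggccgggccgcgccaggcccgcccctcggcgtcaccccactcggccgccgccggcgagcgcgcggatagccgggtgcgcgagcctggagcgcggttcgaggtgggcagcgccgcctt
Hspa4, chr11:53300430-53300729, minus strand: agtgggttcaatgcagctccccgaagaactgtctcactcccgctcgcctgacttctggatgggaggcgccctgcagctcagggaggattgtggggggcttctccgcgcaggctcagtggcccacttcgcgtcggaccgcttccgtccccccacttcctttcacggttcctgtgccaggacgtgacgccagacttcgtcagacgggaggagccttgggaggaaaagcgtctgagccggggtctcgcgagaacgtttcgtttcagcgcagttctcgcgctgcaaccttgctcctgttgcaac
The Hsph1 window held the triple unit as TTCTGGAAAGTTC, beginning at base 16 of the transcript, and a further pair TTCTCGAA beginning 54 bases before the start. The triple unit was in 0.603% of all 32851 windows of this length, and a pair was in 15.1%. Dnajb4, which also rose, held the pair TTCTAGAA beginning 14 bases before 1 of its 2 annotated starts. Fkbp4, which fell, held the pair GAAAGTTC beginning 151 bases before its start. Dnaja1 held 1 pair in 1 of 3 windows, and neither Hspa4 nor Dnajb1 held these letters in the windows searched. In all, a pair was in 5 of the 11 windows, from 4 of the 6 genes, and the triple unit was in both windows of Hsph1, which overlap. A match of letters shows neither binding nor a cause of the change.

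The J proteins start the HSP70 cycle by delivering clients and stimulating ATP hydrolysis. Dnajb4 had 29.7 and 23.9 scaled CPM in CuNZ@Gel, against 12.7 and 12.1 in Gel. Both CuNZ@Gel libraries were higher, with the widest spread of the 10 genes relative to its level (26.8 ± 4.15, against 12.4 ± 0.433 in Gel, SD, n = 2 each). It rose 2.17-fold (log2 change 1.05, 95% interval 0.79 to 1.30, limma adjusted p = 1.76e-07). Dnajb1, the classical heat-inducible HSP40, had 25.6 and 26.5 scaled CPM in CuNZ@Gel and 25.7 and 26.8 in Gel. The groups overlapped (log2 change -0.01, interval -0.22 to 0.20, adjusted p = 0.946), and the interval leaves room for changes of up to 0.22 on the log2 scale. Dnajb4 therefore had 1.16 and 0.899 reads per read of Dnajb1 in CuNZ@Gel, against 0.493 and 0.451 in Gel, a 2.17-fold difference (two-sided exact permutation p = 0.333, the smallest possible).

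Dnaja1, a farnesylated class A J protein, had 184 and 197 scaled CPM in CuNZ@Gel, against 182 and 184 in Gel. It did not pass (log2 change 0.06, interval -0.07 to 0.19, limma adjusted p = 0.431). It was raised by 0.25 with total reads only (limma adjusted p = 0.00203) and lowered by 0.28 after the length and GC correction (limma adjusted p = 3.09e-04). That correction took a principal transcript of 5622 bases for Dnaja1, and the call with another transcript was not tested. Exons of Smu1, a splicing factor gene on the opposite strand, overlap those of Dnaja1, and Smu1 had 88.2 to 94.8 scaled CPM in CuNZ@Gel and 90.3 to 90.7 in Gel. The use of strand in counting is not given in the sources used here, so the level of Dnaja1 is uncertain. Of 12 tested J protein genes of the cytosol and nucleus, 3 were raised and 3 lowered, against 6 and 2 with total reads only. Fewer were called without CuNZ@Gel replicate 1 or without Gel replicate 1, and the share of all genes in those fits is not given here. With relative log expression or upper-quartile factors 4 were raised and 2 lowered, where 67.2% and 66.7% of all genes were called. Of all tested genes 32.2% were raised and 34.8% lowered as deposited, and 43.4% and 24.7% with total reads only. Dnajb2, a J protein with ubiquitin-binding motifs, rose by 0.55. Dnajc5, which protects exocytosis proteins, rose by 0.23, but was -0.087 and did not pass with length and GC corrected for, nor did it pass without CuNZ@Gel replicate 1 or Gel replicate 1 (0.16 and 0.17). Dnajc7, which binds both HSP70 and HSP90, and Dnajc21, of ribosome assembly, fell by 0.42 and 0.43.

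**Figure D3:**
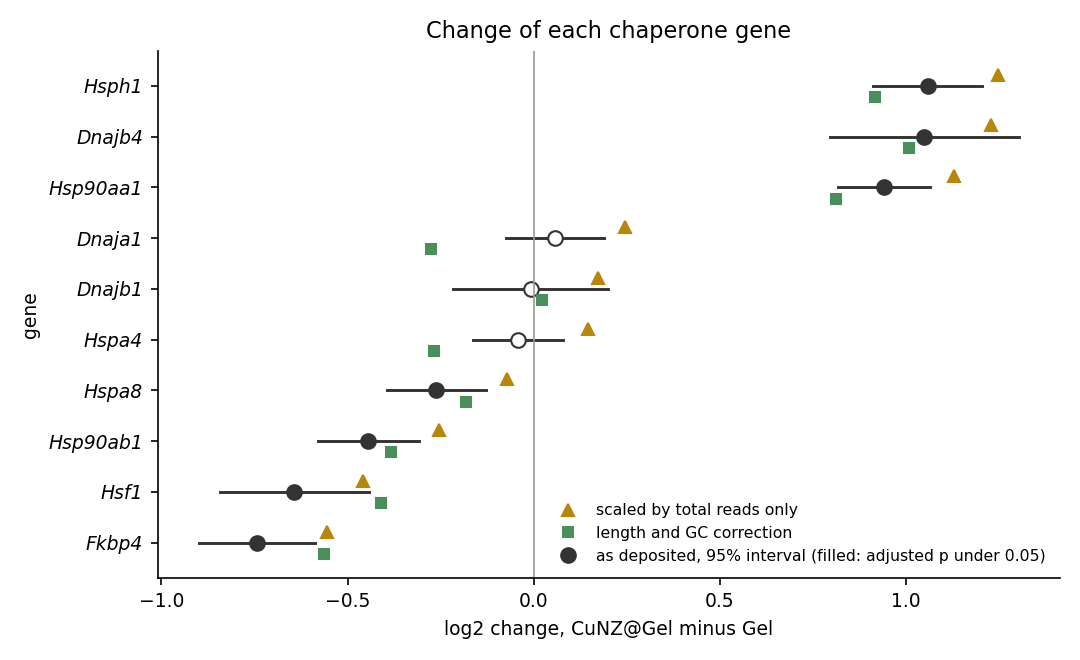
Log2 change of the 10 chaperone genes (CuNZ@Gel minus Gel) from the deposited values with 95% intervals, filled where the adjusted p was under 0.05, beside the values with total reads only (triangles) and after the length and GC correction (squares). Hsph1, Dnajb4 and Hsp90aa1 stay above 0 and Fkbp4, Hsf1, Hsp90ab1 and Hspa8 stay below 0 under all 3, while Dnaja1, Dnajb1 and Hspa4 change sign.

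Small heat shock proteins, which hold unfolded proteins without ATP, were listed at 0 or had low values. Hspb1, Cryab, Hspb2 and Hspb3 were listed at 0 in all 4 libraries, and as for Hspa1a and Hspa12b, whether such a 0 is an absence of reads or a failed estimate cannot be settled from the deposited values. Hspb7 had 5 reads in CuNZ@Gel and 5 in Gel, and Hspb8 had 18 and 4. Hspb6, the HSP20 gene and the 1 member of 7 that was tested, fell to 5.22 ± 0.158 scaled CPM in CuNZ@Gel, against 8.30 ± 0.474 in Gel, but did not pass after the length and GC correction (log2 change -0.28, limma adjusted p = 0.102). Among 20 genes known to be induced by heat through HSF1, of which 7 belong to the 10 described above, 17 were tested. Of these, 7 were raised, 6 lowered and 4 not passed, beside 32.2% raised and 34.8% lowered of all tested genes. The median log2 change of the list was 0.06. With total reads only 9 were raised and 4 lowered, beside 43.4% and 24.7% of all genes. Corrected for length and GC, 6 were raised and 8 lowered, beside 30.1% and 35.7%. Outside the 10 genes, Hspa1b rose by 1.07. Hspe1 and Hspd1, the mitochondrial chaperonins, fell by 0.52 and 0.33. Genes of this list therefore lay on both sides. The 7 raised included Hsph1, Hsp90aa1, Hspa1b and Bag3. The 6 lowered included Fkbp4, Hspe1 and Hspd1, and also Hsp90ab1 and Hspa8, which are the constitutive forms.

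Genes of HSP90 clients, the kinases, receptors and sensors that HSP90 matures, were raised in 10 of 15 tested cases, and 3 were lowered. Of all tested genes 32.2% were raised and 34.8% lowered. The median log2 change of the clients was 0.56, against -0.03 for all tested genes. With total reads only 11 clients were raised and 3 lowered, beside 43.4% and 24.7% of all genes. Corrected for length and GC, 9 were raised and 4 lowered (median 0.31), beside 30.1% and 35.7%. The list was chosen with earlier results of these data known, so its median is a description only. Nlrp3, the inflammasome sensor, had 78.2 and 75.8 scaled CPM in CuNZ@Gel, against 26.4 and 25.6 in Gel. Ikbkg, the regulatory subunit of the kinase that activates NF-kB, rose 2.79-fold. The tyrosine kinase gene Src rose to 18.6 ± 0.942 scaled CPM in CuNZ@Gel, against 5.61 ± 0.763 in Gel. Cdk4, a kinase of the cell cycle, fell to 122 ± 4.04 in CuNZ@Gel, against 255 ± 5.64 in Gel. Nr3c1, the glucocorticoid receptor, which FKBP52 assists, was chosen after its values were seen and did not pass, at 52.4 and 51.8 scaled CPM in CuNZ@Gel and 57.2 and 56.9 in Gel; corrected for length and GC it was lowered (log2 change -0.51, limma adjusted p = 2.32e-06). Ahr, the aryl hydrocarbon receptor, also named after its values were seen, was listed at 0 throughout, which may likewise be a failed estimate.

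**Figure D4:**
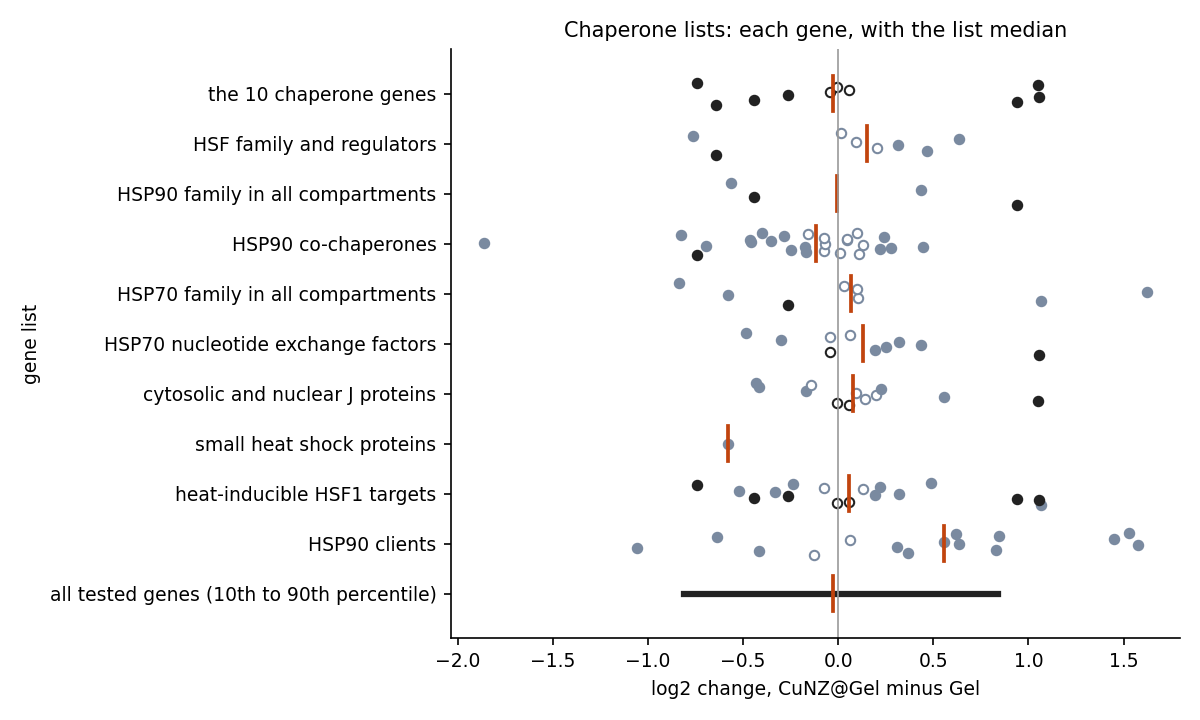
Log2 change (CuNZ@Gel minus Gel) of each tested gene in the chaperone lists, filled where the adjusted p was under 0.05 and dark for the 10 chaperone genes, with the median of each list as a vertical line. The bar at the bottom spans the 10th to 90th percentile of all tested genes (-0.81 to 0.84), and the chaperone lists lie on both sides of 0, with the median of HSP90 clients at 0.56. The lists were chosen with earlier results of these data known.

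Levels were compared between genes per kilobase of the principal transcript. Hspa8 was the most abundant of the 10 in both groups, at 1186 ± 12.8 scaled CPM per kilobase in CuNZ@Gel and 1422 ± 1.39 in Gel (SD, n = 2 each). Hsp90ab1 came next, at 847 ± 19.1 in CuNZ@Gel and 1153 ± 64.4 in Gel, followed by Hsp90aa1, at 583 ± 14.3 in CuNZ@Gel and 304 ± 3.13 in Gel. Hspa4 and Fkbp4 kept places 4 and 5 in both groups. Hsph1 stood above Dnaja1 in CuNZ@Gel, at 39.2 ± 1.86 against 33.9 ± 1.59 scaled CPM per kilobase, and below it in Gel, at 18.7 ± 0.725 against 32.6 ± 0.289. Dnajb4 was last in Gel, at 5.02 ± 0.176, whereas in CuNZ@Gel, at 10.9 ± 1.69, it could not be told from Hsf1, at 10.8 ± 0.288. All other neighbours in these orders had libraries that did not overlap. The order depends on the transcript taken as principal, which for Dnaja1 is a long one of 5622 bases.

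By the deposited values, the 3 raised and 4 lowered genes also differed in base composition, which the choice of genes did not use. The transcripts of Hsp90aa1, Hsph1 and Dnajb4 held 43.7%, 47.4% and 39.0% GC, and those of Hsf1, Hsp90ab1, Hspa8 and Fkbp4 held 57.7%, 51.0%, 51.2% and 55.8%, so that the ranges were apart. Transcript lengths were 2464 to 3802 bases for the raised genes and 2084 to 2520 for the lowered. Over 10926 tested genes, the Pearson r of the log2 change with transcript GC content was -0.184 and that with log2 length was 0.298, and genes are not independent replicates. After each library was corrected for both, the 3 raised genes changed by 0.81, 0.92 and 1.01 (Hsp90aa1, Hsph1 and Dnajb4) and the 4 lowered genes by -0.41, -0.38, -0.18 and -0.56 (Hsf1, Hsp90ab1, Hspa8 and Fkbp4). All 7 still passed, with Hspa4 and Dnaja1 added as lowered. Hspa4 and Dnaja1 held 46.6% and 41.2% GC, so with them among the lowered the GC ranges were no longer apart. Dnajb1, the remaining gene, held 52.7%. With mitochondrial and ribosomal RNA genes left out, the same 7 passed, where 66.3% of all genes were called. The log2 changes were then 0.88 for Hsp90aa1 and 1.00 for Hsph1.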

How the data were processed

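RNA of RAW264.7 cells was sequenced in 4 libraries, made per the labels with the CORALL RNA-seq V2 kit. The authors deposited 1 log2 value for each gene symbol, with 3 decimals. Tools named in the submitters' processing notes are fastp, STAR, Salmon and GATK, with build GRCm39. For their settings, for strand or molecular identifiers and for the normalization, nothing is given in the sources used here. The numbers themselves show log2(x + 1), x being CPM divided by 1 factor per library (1.07 and 1.07 for CuNZ@Gel replicates 1 and 2, 0.937 and 0.936 for Gel replicates 1 and 2). Reads were recovered from the smallest step: 93.0% to 93.7% of values of at most 1 were whole within 0.02 reads.

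Tests used limma (3.58.1, under R 4.3.3) on the deposited log2 values of genes with at least 1 scaled CPM in 2 libraries, with a variance trend, group as the sole term, and Benjamini-Hochberg adjustment over all genes at 0.05. Log2 changes understate those of low genes. Folds are ratios of mean scaled CPM. Besides the 10 genes, each list gave up to 4 names, those with the smallest p past the threshold, and the HSP70 and small heat shock protein lists also their untested genes; 1 gene so chosen is not reported here. The macrophage markers, Pdgfrb and Pecam1 were named after their values were seen. Genes and lists were chosen with earlier results of these data known. Transcript length and GC were those of the longest principal transcript in GENCODE vM21 (94.3% of tested genes matched), whose build differs. Its exon coordinates served only for the overlaps stated for Hspa8 and Dnaja1. The procedure was tested on simulated data with a fixed spread and far fewer changed genes than were called here. That test therefore does not give the error rate in these data. Alternatives were 3 other scalings, limma-voom on recovered reads, a pseudocount of 0.1, no filter or one at 5 scaled CPM, a least fold of 1.5, leaving out mitochondrial and ribosomal RNA genes, correcting for length and GC, leaving out each library, and a replicate block.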

Additional observations from a re-analysis of the deposited data

How the results depend on the processing

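The directions of the 7 called genes held in all 17 alternatives. Hsp90aa1, Hsph1 and Dnajb4 passed in all 17, Hsf1, Hsp90ab1 and Fkbp4 in 16 and Hspa8 in 15, and each passed with any 1 library left out. Tested by limma against a fold of 1.5, 1955 genes were called (1015 raised and 940 lowered), in place of 7770. This is 16.9% of the 11588 tested. Of the 10 chaperone genes 3 were then called and 0 lowered, with 1 lowered at an unadjusted p under 0.05 (Fkbp4, adjusted p = 0.119). In that test limma called 0 of 8 HSF genes (1 at an unadjusted p under 0.05) and 0 of 1 small heat shock protein (0 unadjusted). It called 1 of 4 HSP90 family genes, 1 of 26 HSP90 co-chaperones, 1 of 10 exchange factors and 1 of 12 J proteins. It called 3 of 8 HSP70 family genes, 3 of 17 heat-inducible genes and 6 of 15 HSP90 clients. With total reads only, 5 of the 10 were raised. Without a filter, 3 of 10 exchange factors were called, near the share of all 19581 genes then tested (35.4%). Corrected for length and GC, with or without the block, limma called 0 small heat shock proteins (0 unadjusted), and the log2 ratio differences were 1.19 for Hsp90aa1 to Hsp90ab1 and 1.18 for Hsph1 to Hspa4.

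Among the 48 genes followed through the alternatives, the sign changed for Hspa4 (0.15 with total reads only), Stip1 (0.11), Nr3c1 (0.058) and Spi1 (0.10) likewise, Fkbp5 (-0.02 to 0.234 with 1 library left out), Dnajb1, and, corrected for length and GC, with or without the block, Dnaja1 (-0.28), Dnajc5 (-0.087), Stip1 (0.051), Hspa5 (-0.056), Cd68 (0.053) and Spi1 (0.18). Dnajb1 was 0.014 and 0.020 with relative log expression and upper-quartile factors, 0.17 with total reads only, 0.021 corrected for length and GC, with or without the block, and -0.0365 to 0.0195 with 1 library left out. The cause was not tested.

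The labels do not say that replicate numbers pair the libraries. With the replicate number as a block, 7489 genes were called in all and 7 of the 10. Deviations of same-numbered libraries correlated at -0.116 across genes, and a crossed block, added after the data were seen, called 8370 genes and 7 of the 10. Depth limits chiefly Hspa12a, Hspa1b and the small heat shock proteins.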
